A study of Homo sapiens with 6 samples.

Results

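The genes of the proteasome are described here in SW480 cells, a human colorectal adenocarcinoma line, 48 h after transfection with a control siRNA (siControl, 3 cultures) or with siRNA against ZEB1 (siZEB1, 3 cultures). The members were the rows whose symbol is PSM followed by a letter from A to G and a number, without the immunoproteasome subunits PSMB8, PSMB9 and PSMB10 and without pseudogene and antisense rows, which gave 43 of the 32029 genes listed. They comprise 14 subunits of the core particle, 17 subunits of the regulatory particle, 7 assembly chaperones, and 5 activators and inhibitors. PSMA8 and PSMB11, which match the same pattern, had no row. All 43 members passed the filter on low counts, as did 14996 genes in all. All 6 cultures were SW480 cells, and the siRNA was the only difference between the arms named in the labels. Whether the arms also differed in preparation or sequencing batch, and the siRNA sequences, are not given in the sources used here.

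The proteasome is the protease that degrades proteins tagged with ubiquitin. Its barrel-shaped core particle stacks rings of alpha subunits, which form the gate, around rings of beta subunits, of which PSMB5, PSMB6 and PSMB7 carry the active sites. The regulatory particle caps the barrel with a base, whose ATPase ring unfolds the substrate, and a lid, which removes the ubiquitin chain. Dedicated chaperones build both particles and leave before the mature enzyme forms, and alternative activators can replace the regulatory particle. Cells are known to adjust the transcripts of the subunits together, largely through the transcription factor NFE2L1.

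Total counts per culture lay between 19040636 and 22357633, and proteasome genes took 0.766% to 0.811% of them. ZEB1 was counted 1247, 1276 and 908 times in siControl cultures 1 to 3 and 136, 132 and 162 times in siZEB1 cultures 1 to 3, so the targeted transcript was lower in every culture that carried the siZEB1 label. Gene positions are on GRCh38 in GENCODE 29. Levels are given as counts scaled to the library total, with TMM factors, in CPM, and each log2 fold change, or log2 ratio, is that of siZEB1 over siControl from edgeR's quasi-likelihood test, called at an adjusted p-value under 0.05 over all 14996 genes. In bulk RNA, fewer cells with a transcript and less transcript per cell cannot be told apart. Of the colorectal epithelial markers, KRT8 and KRT18 were abundant, with at least 25333 reads in every culture, KRT20 had 2 to 20 reads, and CDX1 had no row. EPCAM, VIL1 and KRT19 differed between the arms by 3.05, 2.34 and 1.62 on the log2 scale, and CDX2 by -1.30. The leukocyte and fibroblast markers CD3E, CD68 and COL1A2 had at most 5 reads in any culture, and PTPRC, CDH5 and DCN had no row. PECAM1, VWF, PDGFRB and COL1A1 had 24 to 35, 5 to 26, 77 to 106 and 143 to 227 reads, and PDGFRB was called higher in the siZEB1 cultures. The part of these marker differences in the values of the proteasome genes was not tested.

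Transcripts of the proteasome changed little when ZEB1 was knocked down. Only 7 of the 43 members passed the test (16.3%), whereas 40.2% of all genes tested did. PSMA4, PSMB1, PSMC3 and PSMD10 were higher in the siZEB1 cultures, 4 members against 19.0% of all genes, and PSMD11, PSME1 and PSMG4 were lower, 3 members against 21.2% of all genes. Before adjustment, 10 members had a p-value under 0.05 (9 with DESeq2). In edgeR, 7210 of all 14996 genes tested did. The groups did not overlap at 8 members that were higher and 8 that were lower, 16 of 43, against 49.5% of all genes. Of these 16, PSMA3, PSMB2, PSMC4 and PSMD6 were higher and PSMC1, PSMD1, PSMD4, PSMD7 and PSMD12 lower in all siZEB1 cultures without passing the test. By a rule of more than 1.5-fold and p under 0.05 before adjustment, which called 16.6% of all genes, PSMG4 was the single member called. The calls fell to 2 higher without siControl culture 1, siControl culture 2, siZEB1 culture 1 or siZEB1 culture 2, and the calls lower ran from 2 to 4 over the fits that left out 1 culture.

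The small number of calls stood beside narrow intervals. The median absolute log2 ratio was 0.085 for the proteasome genes and 0.25 for all genes tested, and the median SE was 0.063 and 0.098. The absolute log2 ratio was under 0.2 for 38 of 43 members, and for 42.1% of all genes. The 95% interval of the log2 fold change lay wholly within -0.3 to 0.3 for 36 of 43 members (83.7%) and for 28 of the 31 structural subunits (90.3%), against 21.9% of all genes. The exceptions among the structural subunits were PSMA2, PSMA6 and PSMC3. The width of an interval depends on read counts. All genes tested include genes with 0 reads in a culture, and the shares given here were not matched for level.

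**Figure D1:**
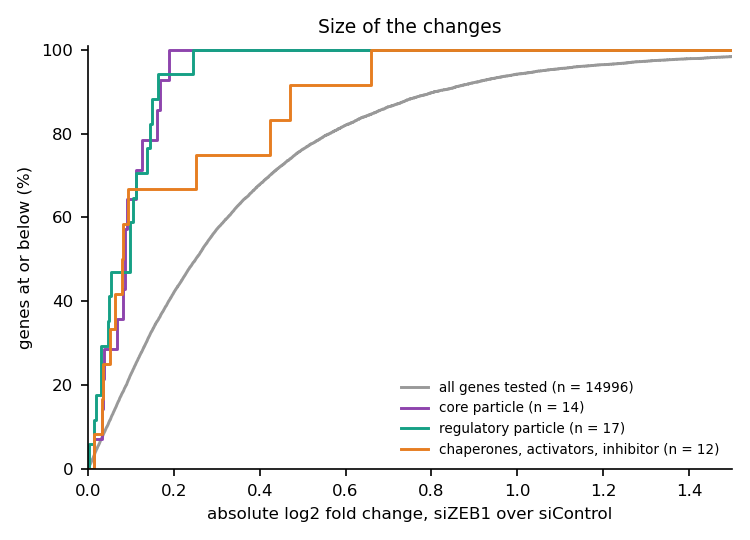
Cumulative share of genes (%, vertical axis) by absolute log2 fold change of siZEB1 over siControl (horizontal axis), for the core particle, the regulatory particle, the other members and all genes tested. The curves of both particles reach 100% below 0.25, whereas 42.1% of all genes tested have an absolute value under 0.2.

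The alpha subunits of the core particle, which form its outer rings, all had log2 fold changes above 0 (7 of 7, median 0.067). Of all 14996 genes tested, 7407 were above 0. Among the 7 alpha subunits, 1 passed the test (14.3%, against 40.2% of all genes). PSMA1, PSMA5, PSMA6 and PSMA7 were below 0 without siZEB1 culture 2. PSMA4 (chr15:78540405-78552419, plus strand) had 248, 234 and 256 CPM with siControl and 277, 276 and 271 CPM with siZEB1, so every siZEB1 culture lay above every siControl culture. Its log2 ratio was 0.16 (SE 0.056, adjusted p = 0.0311). When 1 culture was left out, that call was lost without siControl culture 1 (adjusted p = 0.0544), siControl culture 2 (0.175), siZEB1 culture 1 (0.112) or siZEB1 culture 2 (0.0919). It was also lost without the filter on low counts (0.0684). PSMA4 was singled out after its value was seen. PSMA7, the subunit with the highest level per kilobase of exon, had 413, 434 and 457 CPM with siControl and 452, 466 and 419 CPM with siZEB1, and these groups overlapped.

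PSMA1, PSMA2 and PSMA6 stood apart from the other alpha subunits in their counts. PSMA6 had 48 to 66 reads per culture, PSMA2 69 to 102 and PSMA1 128 to 168, whereas every other core subunit had at least 2693 reads in each culture. In the GENCODE 29 annotation, 97.1% of the coding bases of PSMA2, 88.6% of those of PSMA1 and 70.4% of those of PSMA6 also belong to another gene on the same strand. The same held for 58.7% of the coding bases of the chaperone PSMD9, which had 39 to 67 reads. The overlapping genes of PSMA2, PSMA6 and PSMD9 had 0 to 6 reads in any culture, and that of PSMA1 had no row. The next highest share was 14.2%, in PSMF1. How the counting program treated reads in 2 genes is not given in the sources used here, the part of the overlap in these low counts was not tested, and the levels of these 4 genes are uncertain. PSMA1 and PSMA2 had the lowest and highest log2 fold changes among the alpha subunits, at 0.01 (95% interval -0.25 to 0.28, adjusted p = 0.938) and 0.19 (-0.15 to 0.53, adjusted p = 0.368). PSMA6 was at 0.07 (-0.34 to 0.47, adjusted p = 0.810). PSMA1 also changed sign without siControl culture 1, and PSMA6 without siControl culture 2.

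The beta subunits hold the proteolytic sites, and 1 of 7 passed the test (14.3%, against 40.2% of all genes). PSMB1 (chr6:170535117-170553341, minus strand), a structural beta subunit without an active site, had 259, 246 and 275 CPM with siControl and 293, 301 and 282 CPM with siZEB1. The siZEB1 cultures were all above the siControl cultures, and the log2 ratio was 0.17 (SE 0.058, adjusted p = 0.0290), the highest of the beta subunits. When 1 culture was left out, significance was lost without siControl culture 1 (adjusted p = 0.0630), siControl culture 2 (0.166), siZEB1 culture 1 (0.0976) or siZEB1 culture 2 (0.121).

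The active-site subunits did not pass the test, and each interval excluded a change as large as 0.25 in either direction. PSMB5, the chymotrypsin-like subunit targeted by proteasome inhibitors, had 239, 243 and 259 CPM with siControl and 239, 243 and 215 CPM with siZEB1. It had the lowest log2 fold change of the beta subunits, at -0.09 (95% interval -0.22 to 0.04, adjusted p = 0.264). PSMB6, the caspase-like subunit, had 144, 146 and 158 CPM with siControl and 167, 161 and 147 CPM with siZEB1, a log2 ratio of 0.08 (-0.06 to 0.22, adjusted p = 0.341). PSMB7, the trypsin-like subunit, had 331, 316 and 349.5 CPM with siControl and 320.0, 326 and 292 CPM with siZEB1, a log2 ratio of -0.09 (-0.21 to 0.04, adjusted p = 0.266). The groups overlapped at all 3 genes. PSMB2, singled out after its value was seen as the remaining core member with an unadjusted p-value under 0.05, was at 0.13 (adjusted p = 0.0813).

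In the regulatory particle, 1 subunit was higher and 1 was lower, of 17 (11.8%, against 40.2% of all genes). PSMC3 (chr11:47418769-47426473, minus strand), an ATPase of the ring that unfolds substrates, had 207, 206 and 223 CPM with siControl and 263, 259.5 and 232 CPM with siZEB1. Every siZEB1 culture lay above every siControl culture, although siZEB1 culture 3 was close to siControl culture 3. The log2 ratio was 0.24 (SE 0.063, adjusted p = 0.00490), the highest of the 31 structural subunits, and the gene was called in all 12 alternative fits, with adjusted p-values up to 0.0434. The other 5 ATPases were not called. PSMC1 had the lowest log2 fold change of the ring, at -0.14 (adjusted p = 0.105), and 75.8% of its exonic bases lie opposite exons of NRDE2, which was itself lower (log2 fold change -0.35, adjusted p = 0.0131). Because a strand setting of the counting is not given in the sources used here, reads of these 2 genes cannot be told apart. The same limit touches PSMC5, with 19.5% of its exonic bases opposite FTSJ3, which fell by 0.93 on the log2 scale, and PSMD7, with 30.7% opposite AC009120.2, which was not called.

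None of the other 3 base subunits passed the test in edgeR, and 1 had an unadjusted p-value under 0.05, while DESeq2 called none either. PSMD4, a ubiquitin receptor, had 186, 186 and 201 CPM with siControl and 179, 181 and 158 CPM with siZEB1. Its groups did not overlap, and the log2 ratio was -0.14 (95% interval -0.28 to -0.01, adjusted p = 0.0911). PSMD2, the scaffold that docks shuttle factors and the highest of the 3, was at 0.00 (-0.10 to 0.11, adjusted p = 0.963).

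The lid had log2 fold changes below 0 in 6 of its 8 subunits, beside 7589 of all 14996 genes tested. PSMD3, PSMD8 and PSMD13 were at -0.019, -0.014 and -0.047, and each was above 0 in at least 1 alternative fit. PSMD11 (chr17:32444261-32483318, plus strand), a lid subunit that clamps the regulatory particle to the core, had 271, 262 and 267 CPM with siControl and 237, 242 and 235 CPM with siZEB1. All siZEB1 cultures were below all siControl cultures, and the log2 ratio was -0.16 (SE 0.054, adjusted p = 0.0213). When 1 culture was left out, significance was lost without siControl culture 1 (adjusted p = 0.0599), siZEB1 culture 1 (0.0871), siZEB1 culture 2 (0.0514) or siZEB1 culture 3 (0.0532). PSMD12, another lid subunit, had 221, 196 and 201 CPM with siControl and 182, 189.6 and 185 CPM with siZEB1, a log2 ratio of -0.15 (adjusted p = 0.0604). It was called when siControl culture 3 was left out (adjusted p = 0.0344) and when counts were scaled by library totals alone (0.0473), and it was singled out after that was seen. PSMD14, the deubiquitinase of the lid, had 171, 168 and 165 CPM with siControl and 176, 179.7 and 169 CPM with siZEB1, with overlapping groups and a log2 ratio of 0.05 (-0.07 to 0.18, adjusted p = 0.480). PSMD6 had the highest log2 fold change of the lid, at 0.10 (adjusted p = 0.158).

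**Figure D2:**
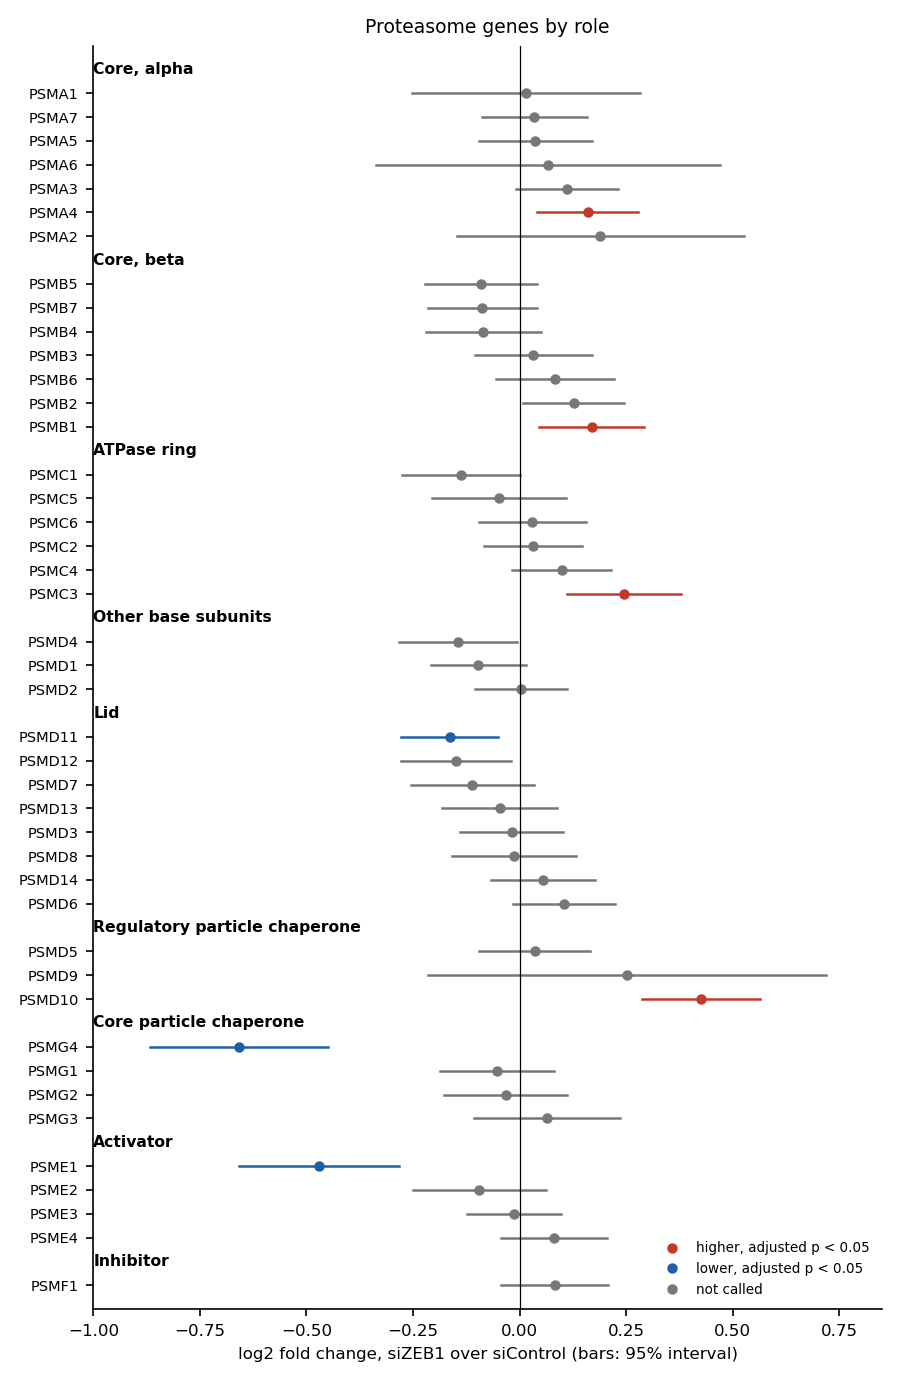
Log2 fold change of siZEB1 over siControl (horizontal axis, bars are 95% intervals) for the 43 proteasome genes, ordered within each role. The 31 structural subunits lie between -0.16 and 0.24, and PSMD10, PSMG4 and PSME1 lie farther from 0.

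Set against each other, the core particle had 2 members higher and 0 lower in edgeR's test, and the regulatory particle 1 higher and 1 lower. These were 14.3% of the core and 11.8% of the regulatory subunits, both below the 40.2% of all genes. No core member was lower at an unadjusted p-value under 0.05 or with DESeq2 either. The median log2 ratio was 0.052 over the core particle and -0.019 over the regulatory particle, a difference of 0.071, beside -0.0055 over all genes tested. Of the core subunits 11 of 14 were above 0, and of the regulatory subunits 7 of 17, beside 7407 of all 14996 genes tested. The mean log2 CPM of the core particle minus that of the regulatory particle was -1.05, -1.04 and -1.02 in the siControl cultures and -0.997, -0.925 and -0.960 in the siZEB1 cultures, so all siZEB1 cultures were higher. Without PSMA1, PSMA2 and PSMA6, a choice made after their counts were seen, these values were 0.17, 0.19 and 0.24 with siControl and 0.26, 0.29 and 0.25 with siZEB1, again without overlap. The difference of the medians was then 0.056. Both medians moved with single cultures. The core median was 0.00038 without siZEB1 culture 2 and 0.081 without siZEB1 culture 3. The regulatory median was above 0 without siZEB1 culture 3 (0.024) or siControl culture 3 (7.3e-05), and -0.062, -0.057 and -0.037 without siControl culture 1, siZEB1 culture 2 and siZEB1 culture 1. The subunits share the same cultures, so this comparison is a description without a test.

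Levels of different subunits were compared per kilobase of annotated exon. In the siControl cultures the 14 core subunits ranged from 0.423 CPM per kb for PSMA6 to 249 CPM per kb for PSMA7, with a median of 87.3. The 17 regulatory subunits ranged from 20.7 CPM per kb for PSMC6 to 102 CPM per kb for PSMD8, with a median of 38.4. Without PSMA1, PSMA2 and PSMA6, the core subunits spanned 29.7 to 249 CPM per kb, an 8.38-fold range around a median of 115. With all 14 core subunits, PSMA1, PSMA2 and PSMA6 included, the core median was 2.27 times the regulatory median. That ratio was 1.67 or 1.88 with the longest transcript or the coding length in place of all exons. With siZEB1, the medians were 93.2 for all 14 core subunits and 35.2 CPM per kb for the regulatory particle.

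**Figure D3:**
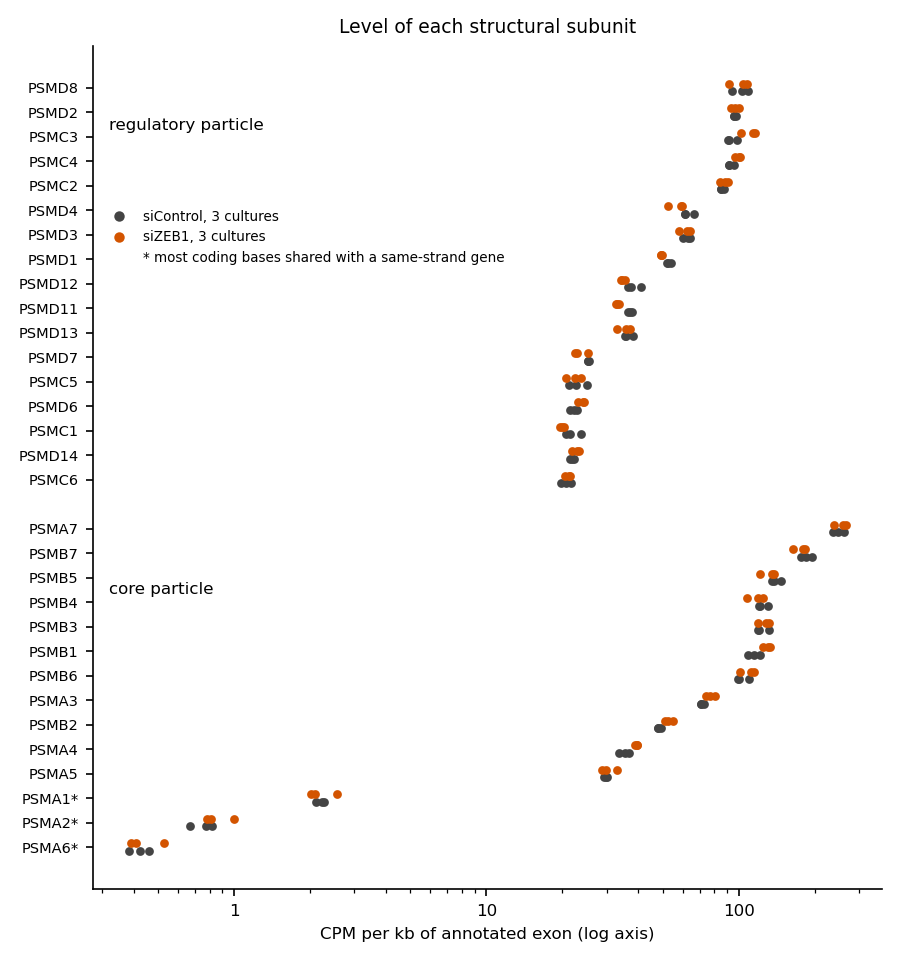
Level of the 31 structural subunits in CPM per kb of annotated exon (horizontal log axis), with 1 point for each of the 3 siControl and 3 siZEB1 cultures. PSMA7 is the highest of both particles, PSMA1, PSMA2 and PSMA6 (asterisks) lie far below the other core subunits, and the points of both groups lie close together at each subunit.

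The largest absolute log2 ratios, those of PSMG4, PSME1 and PSMD10, were outside the particles themselves, in genes that assemble or activate them. These genes were not typical of their class. The 12 chaperones, activators and inhibitor had a median absolute log2 ratio of 0.081, and 9 were not called. That median was 0.086 for the core and 0.097 for the regulatory particle. PSMD10 (chrX:108084207-108091618, minus strand), also known as gankyrin, is a chaperone of the ATPase ring. It had 61.2, 59.9 and 59.9 CPM with siControl and 79.7, 85.2 and 78.1 CPM with siZEB1. The groups were well separated, and its mean level went from 60.3 ± 0.785 CPM up to 81.0 ± 3.77 CPM (SD over 3 cultures each), a log2 ratio of 0.42 (SE 0.066, adjusted p = 6.46e-05) or 34.3%. The call was kept in all 12 alternative fits, with log2 fold changes from 0.39 to 0.45. The other chaperones of the regulatory particle were not called. PSMD5 was at 0.03 (95% interval -0.09 to 0.16, adjusted p = 0.684). PSMD9 was at 0.25 (-0.21 to 0.72, adjusted p = 0.391) with 39 to 67 reads, and its value moved to 0.53 without siControl culture 3, 0.18 without siControl culture 2 and 0.07 without siControl culture 1.

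The chaperones of the core particle work as dimers, PSMG1 with PSMG2 and PSMG3 with PSMG4, that help the alpha ring to form. PSMG4 (chr6:3231403-3303373, plus strand) had 23.2, 24.2 and 29.2 CPM with siControl and 16.2, 15.4 and 16.8 CPM with siZEB1. It fell from 25.5 ± 3.23 to 16.1 ± 0.689 CPM (SD over 3 cultures each), with no overlap, a log2 ratio of -0.66 (SE 0.098, adjusted p = 4.63e-05) and the largest absolute log2 fold change of all 43 members. The call was kept in all 12 alternative fits, with log2 fold changes from -0.72 to -0.56. Exons on the opposite strand, of TUBB2B and SLC22A23, cover 15% of its exonic bases, and TUBB2B also fell (log2 fold change -0.41). In the siControl cultures TUBB2B had 50.7 CPM per kb of exon, SLC22A23 1.64 and PSMG4 2.45. The share of PSMG4 reads in the overlap could therefore exceed 15%. The part of this overlap in its fall was not tested. Its partner PSMG3 had 43.9, 46.6 and 50.4 CPM with siControl and 48.8, 53.6 and 44.7 CPM with siZEB1, with overlapping groups and a log2 ratio of 0.06 (adjusted p = 0.567). The ratio of PSMG3 to PSMG4 counts was 1.89, 1.93 and 1.73 with siControl and 3.02, 3.47 and 2.66 with siZEB1, without overlap. The ratio of PSMG1 to PSMG2 counts was 1.39, 1.42 and 1.32 with siControl and 1.41, 1.36 and 1.30 with siZEB1, and overlapped.

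Among the activators, PSME1 and PSME2 form a mixed ring that is induced by interferon gamma and opens the core gate. PSME1 (chr14:24136158-24138967, plus strand) had 28.9, 24.5 and 27.3 CPM with siControl and 18.9, 20.5 and 18.8 CPM with siZEB1. It fell from 26.9 ± 2.25 to 19.4 ± 0.989 CPM (SD over 3 cultures each), without overlap, a log2 ratio of -0.47 (SE 0.089, adjusted p = 0.00042), and was called in all 12 alternative fits. PSME2 had 62.6, 60.4 and 71.3 CPM with siControl and 62.3, 58.6 and 61.0 CPM with siZEB1, with overlapping groups and a log2 ratio of -0.09 (95% interval -0.25 to 0.06, adjusted p = 0.335). The ratio of PSME1 to PSME2 counts was 0.462, 0.405 and 0.383 with siControl and 0.303, 0.351 and 0.308 with siZEB1, so these ratios did not overlap.

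The remaining activators and the inhibitor were not called. PSME3, the nuclear activator, had 348, 346 and 333 CPM with siControl and 343, 339.8 and 335 CPM with siZEB1, a log2 ratio of -0.01 (95% interval -0.12 to 0.10, adjusted p = 0.868). PSME4, an activator of a single large chain, had 236, 242 and 222 CPM with siControl and 247, 235 and 258 CPM with siZEB1, a log2 ratio of 0.08 (-0.04 to 0.21, adjusted p = 0.302). PSMF1, which inhibits the core particle, had 178, 183 and 186 CPM with siControl and 197.5, 200.1 and 181 CPM with siZEB1, a log2 ratio of 0.08 (-0.04 to 0.21, adjusted p = 0.292). All 3 had overlapping groups.

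**Figure D4:**
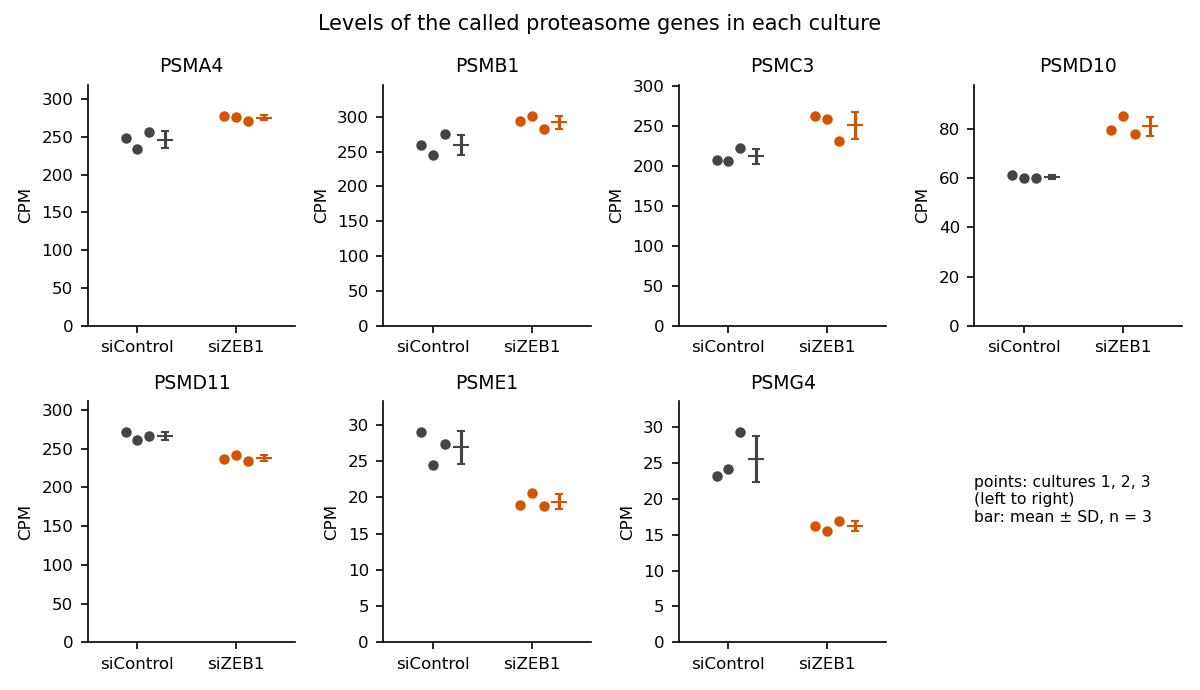
Level in CPM (vertical axis from 0) of the 7 proteasome genes called at an adjusted p-value under 0.05, with 1 point per culture and the mean ± SD of 3 cultures beside them. The siControl and siZEB1 points do not overlap at any of the 7 genes, and relative to the siControl mean the changes are largest for PSMG4, PSMD10 and PSME1.

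The promoters of the members called in all 12 alternative fits (PSMC3, PSMD10, PSME1 and PSMG4) and of PSMD11 are printed from the RefSeq table on GRCh38.p14, from 250 bases before to 50 bases after the start site. PSMD11 is shown because it holds the same ZNF143 and THAP11 motif as PSMC3 and PSMD10 and was called in the other direction. Each sequence is read in the direction of the gene, and capitals mark matches to the 5 motifs described after them.
PSMC3, chr11:47426390-47426689, minus strand: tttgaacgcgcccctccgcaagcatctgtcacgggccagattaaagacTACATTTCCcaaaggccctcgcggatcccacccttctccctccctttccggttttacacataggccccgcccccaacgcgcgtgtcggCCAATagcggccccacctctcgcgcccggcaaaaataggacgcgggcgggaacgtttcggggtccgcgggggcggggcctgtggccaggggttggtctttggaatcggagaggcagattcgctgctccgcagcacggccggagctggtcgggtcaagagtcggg
PSMD10, chrX:108091493-108091792, minus strand: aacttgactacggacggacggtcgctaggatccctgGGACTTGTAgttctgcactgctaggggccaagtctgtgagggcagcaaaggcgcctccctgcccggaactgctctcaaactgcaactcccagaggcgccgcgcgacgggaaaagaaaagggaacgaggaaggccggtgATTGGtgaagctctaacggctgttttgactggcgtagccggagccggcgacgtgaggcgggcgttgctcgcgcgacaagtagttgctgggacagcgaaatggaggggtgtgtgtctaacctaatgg
PSMD11, chr17:32444260-32444559, plus strand: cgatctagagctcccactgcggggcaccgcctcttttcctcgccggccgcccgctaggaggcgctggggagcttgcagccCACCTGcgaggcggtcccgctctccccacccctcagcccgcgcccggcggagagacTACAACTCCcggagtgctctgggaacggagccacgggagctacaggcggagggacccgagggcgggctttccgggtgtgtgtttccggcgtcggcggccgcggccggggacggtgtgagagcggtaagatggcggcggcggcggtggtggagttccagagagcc
PSME1, chr14:24135944-24136243, plus strand: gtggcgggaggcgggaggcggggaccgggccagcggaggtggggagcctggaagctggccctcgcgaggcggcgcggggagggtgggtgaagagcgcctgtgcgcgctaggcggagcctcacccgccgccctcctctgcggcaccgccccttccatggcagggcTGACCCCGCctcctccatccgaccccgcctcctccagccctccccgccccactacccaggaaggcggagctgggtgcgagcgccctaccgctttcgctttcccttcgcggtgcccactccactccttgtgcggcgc
PSMG4, chr6:3258697-3258996, plus strand: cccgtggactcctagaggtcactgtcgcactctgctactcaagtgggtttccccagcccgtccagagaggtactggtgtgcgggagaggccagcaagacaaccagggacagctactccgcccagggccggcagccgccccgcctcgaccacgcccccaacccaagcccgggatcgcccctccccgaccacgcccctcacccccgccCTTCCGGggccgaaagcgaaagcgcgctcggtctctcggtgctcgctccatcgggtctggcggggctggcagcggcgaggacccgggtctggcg

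The table held 45 promoters of 37 members, and none for PSMA7, PSMB1, PSMB6, PSMB7, PSMD4 or PSMG3. Each motif was searched on both strands, and no matches of different motifs overlapped in the promoters of members. The sequence CAGGTG, the E-box form that ZEB1 binds, stood in 13.3% of the promoters of members and in 20.6% of all 35116 promoters of the table. The members with it were PSMA4, PSMD1, PSMD2, PSMD7 and PSMD11, and in PSMD11 its reverse complement begins 170 bases before the start site. PSMA4 was called higher, PSMD11 was called lower, and the other 3 were not called, beside 40.2% of all genes called. The motif TGACNNNGC, the core of the antioxidant response element that NFE2L1 recognizes, stood in 31.1% of the promoters of members and 13.3% of all, PSME1 among them. The motif CCGGAAG, bound by ETS factors, stood in 31.1% and 10.3%, PSMG4 among them. The CCAAT box stood in 40.0% and 34.6%. The motif TACANNTCC, part of the sequence bound by ZNF143 and THAP11, stood in 11.1% and 3.84%. It was found in PSMC3, PSMC4, PSMD2, PSMD10 and PSMD11, of which 2 were called higher and 1 lower. Over all genes tested, 19.0% were called higher and 21.2% lower, and no link between this motif and the calls was tested. These matches describe the sequence and do not show that a factor bound there.

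Beyond the members, 29 genes that work with the proteasome were examined. Of the 28 tested, 3 were higher and 5 were lower, 28.6% against 40.2% of all genes. Without siControl culture 3, 5 of them were higher. Among subunits and assembly factors with other names, POMP, the maturation factor of the core particle, had a log2 ratio of 0.07 (95% interval -0.06 to 0.19, adjusted p = 0.399). The small lid subunit SEM1 was at 0.14 (-0.02 to 0.30, adjusted p = 0.161), or 0.22 and called without siControl culture 3 (adjusted p = 0.0107), and the ubiquitin receptor ADRM1 at -0.08 (-0.26 to 0.09, adjusted p = 0.454). ECPAS, a scaffold that binds the assembled proteasome, had 188, 206 and 190.1 CPM with siControl and 147, 149 and 154 CPM with siZEB1. The groups did not overlap, and ECPAS fell by 0.38 on the log2 scale (SE 0.060, adjusted p = 7.98e-05).

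The immunoproteasome subunits, which replace the active-site subunits in immune cells and after interferon, were near the floor of the data. PSMB10 was counted 47, 44 and 42 times with siControl and 23, 24 and 24 times with siZEB1, a log2 ratio of -0.77 (SE 0.23, adjusted p = 0.0132) that was called in all 12 alternative fits, with adjusted p-values up to 0.0446, and not at the stricter threshold of 0.01. PSMB8 was counted 35, 41 and 30 times with siControl and 16, 26 and 26 times with siZEB1, a log2 ratio of -0.50 (95% interval -1.06 to 0.06, adjusted p = 0.148). PSMB9 was counted 6, 9 and 4 times with siControl and 0, 0 and 1 times with siZEB1, and failed the filter. At PSMB8 and PSMB10, the siZEB1 cultures were all below the siControl cultures. On the same strand, 34.8% of the exonic bases of PSMB10 also belong to AC040162.1, which had 20 to 30 reads and was not called. For PSMB8, 20.6% of the exonic bases lie opposite exons of PSMB8-AS1 and PSMB9. The part of these overlaps in the counts was not tested.

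The transcriptional control of the proteasome rests on NFE2L1, which is cut to its active form by DDI2 after NGLY1 removes its sugars. NFE2L1 had 137, 146 and 138 CPM with siControl and 125, 118 and 127 CPM with siZEB1, without overlap, and fell by 0.18 on the log2 scale (SE 0.061, adjusted p = 0.0243). When 1 culture was left out, that call was lost without siControl culture 2 (adjusted p = 0.126), siZEB1 culture 1 (0.0668) or siZEB1 culture 2 (0.121). DDI2 had 91.6, 89.6 and 76.2 CPM with siControl and 102, 96.8 and 115 CPM with siZEB1. DDI2 rose by 0.28 on the log2 scale (SE 0.081, adjusted p = 0.00996), a call lost without siZEB1 culture 3 (adjusted p = 0.05). RSC1A1 shares 15.3% of the exonic bases of DDI2 on the same strand, and the part of this overlap in the counts was not tested.

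Shuttle factors carry ubiquitin-tagged substrates to the proteasome, and the segregase pulls them out of complexes and membranes. Of the 7 such genes tested, 2 were lower and none was higher in edgeR's test, 28.6% against 40.2% of all genes. Before adjustment, 3 had a p-value under 0.05, beside 7210 of all 14996 genes tested. UBQLN2 had 44.4, 42.9 and 42.2 CPM with siControl and 36.9, 33.0 and 36.1 CPM with siZEB1, and it fell by 0.29 on the log2 scale (SE 0.074, adjusted p = 0.00458). UBQLN4 had 78.5, 77.7 and 75.3 CPM with siControl and 66.3, 66.5 and 63.7 CPM with siZEB1, and it fell by 0.24 (SE 0.064, adjusted p = 0.00672). At both genes all siZEB1 cultures lay below all siControl cultures.

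Of the genes for ubiquitin and its activating enzymes, 2 of 6 were called, 33.3% against 40.2% of all genes. RPS27A, which encodes ubiquitin fused to a ribosomal protein, had 658, 689 and 712 CPM with siControl and 800.0, 873 and 741 CPM with siZEB1. Its log2 ratio was 0.23 (adjusted p = 0.00572), and the call was lost without siZEB1 culture 2 (adjusted p = 0.0554). UBA6, an activating enzyme for ubiquitin, had 81.6, 72.0 and 66.2 CPM with siControl and 85.4, 85.8 and 93.5 CPM with siZEB1, without overlap, a log2 ratio of 0.27 (adjusted p = 0.0113).

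**Figure D5:**
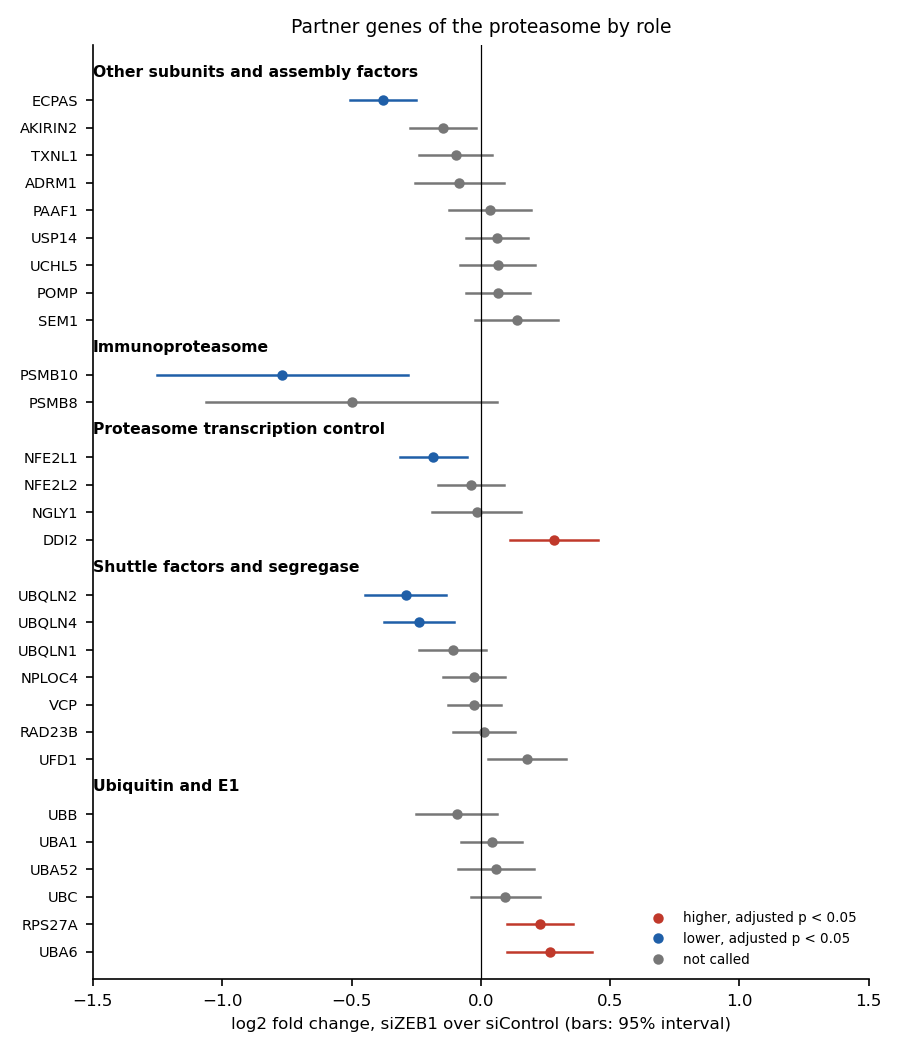
Log2 fold change of siZEB1 over siControl (horizontal axis, bars are 95% intervals) for the 28 tested genes that work with the proteasome, by role. The values lie between -0.77 for PSMB10 and 0.28 for DDI2, and 20 of the 28 genes were not called.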

How the data were processed

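RNA was sequenced from 3 siControl and 3 siZEB1 cultures of SW480 cells, which the study describes as biological replicates, and groups follow the sample labels. The authors deposited raw counts of reads per gene, without normalization. The submitters' processing notes name Trimmomatic, HISAT2, SAMtools, featureCounts and hg38, with no version. The annotation, the strand setting and the treatment of reads in overlapping genes are not given in the sources used here. All 6 tables were used, with every column of counts.

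Genes were filtered by filterByExpr on the arm, scaled by TMM and tested on all 6 cultures with edgeR 4.0.16 (quasi-likelihood, two-sided, no covariate) in R 4.3.3, with Benjamini-Hochberg adjustment over 14996 genes. CPM use the same size factors. The biological coefficient of variation was 6.58%. The fit was tested on simulated data before use. Coordinates, exons, coding bases and overlaps are from GENCODE 29 on GRCh38, in which 31059 of the 32029 identifiers were found, and promoters are from RefSeq. Alternatives were DESeq2 1.42.0, scaling by median of ratios or by library totals alone, other filters, a replicate block, other thresholds and leaving out each culture. Leaving out the members with low counts or large overlaps was added after the data were seen.

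Genes were named by a rule: ZEB1, the lowest and highest log2 fold change of each role, PSMB5, PSMB6, PSMB7, PSMD4, PSMD14, the activators and PSMF1, then NFE2L1, POMP, SEM1, ADRM1, the immunoproteasome subunits and up to 3 called partners per role. The members and lists were chosen with earlier results of these data known, so no count here is independent support. Beyond the rule, PSMA3, PSMA4, PSMA5, PSMA6, PSMA7, PSMB2, PSMC4, PSMC5, PSMC6, PSMD1, PSMD3, PSMD7, PSMD8, PSMD9, PSMD12, PSMD13, PSMG1, PSMG2 and the overlapping genes were named after their values were seen. A marker and a partner gene of the lists are not reported here.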

Additional observations from a re-analysis of the deposited data

How the results depend on the processing

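The 4 calls higher and 3 calls lower among the proteasome genes were within 1.5 times under DESeq2, other size factors and other filters. With an adjusted p-value under 0.01, 2 were higher. By the 1.5-fold rule with p under 0.05 before adjustment, 0 were higher and 1 was lower in edgeR. There, 10 members had p under 0.05 before adjustment (9 with DESeq2), against 7210 of all 14996 genes tested. Leaving out 1 culture gave 2 to 4 higher and 2 to 4 lower. Of the partners, 0 were higher and 1 was lower by the 1.5-fold rule, 3 were lower when the adjusted p-value had to be under 0.01, and leaving out 1 culture gave 2 to 5 higher. Leaving out 1 culture gave regulatory medians from -0.062 to 0.024 and differences of core minus regulatory medians from 0.052 to 0.10. The cause was not tested.

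The replicate numbers are shared by both arms, and whether same-numbered cultures were prepared together is not given in the sources used here. Deviations of same-numbered cultures correlated at -0.052, -0.088 and -0.20. With so few cultures per arm, these correlations cannot decide whether the cultures were paired. With the replicate block 2 members were higher and 2 lower, PSMA4 (adjusted p = 0.135), PSMB1 (0.121), PSMD11 (0.124) and the partner NFE2L1 (0.117) lost their calls, and the calls over all genes went from 2849 to 2289 higher and from 3186 to 2679 lower.

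Of 480 recomputed log2 fold changes of 40 named genes, 444 kept their direction and side of the threshold, 22 lost a call, 3 gained a call and 11 changed sign. PSMD2 changed sign with total library size (-0.0050) and without the filter (-0.0011). The other sign changes came from leaving out 1 culture, with ranges of -0.021 to 0.030 for PSMD2, -0.14 to 0.010 for ADRM1, -0.095 to 0.080 for PSMA1, -0.079 to 0.15 for PSMA6 and -0.0048 to 0.13 for PSMG3. PSMA5, PSMA7, PSMC5, PSMC6, PSMD3, PSMD8, PSMD13 and PSMG2, members outside these 40, also changed sign in at least 1 alternative fit. No gene that changed sign was called. Depth limits PSMA1, PSMA2, PSMA6, PSMD9 and the immunoproteasome subunits, whose intervals are the widest here.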

Other observations

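Besides the members and the immunoproteasome subunits, 22 rows carried a symbol that starts with the name of a proteasome gene, and 8 of them were tested by edgeR's quasi-likelihood test. They were named after their values were seen. PSMC3IP, a protein of meiotic recombination that takes its name from its binding to PSMC3, was counted 326, 383 and 331 times with siControl and 476, 371 and 463 times with siZEB1, a log2 ratio of 0.47 (SE 0.10, adjusted p = 0.00162). PSMG3-AS1, the antisense RNA beside PSMG3, was counted 42, 42 and 34 times with siControl and 57, 60 and 55 times with siZEB1, a log2 ratio of 0.68 (SE 0.19, adjusted p = 0.00862). At these 2 genes the siZEB1 cultures lay above the siControl cultures in CPM. The other 6 were not called. The pseudogene PSMC1P1 had 129 to 226 reads and a log2 ratio of -0.28 (adjusted p = 0.0956), and how reads were split between PSMC1 and this copy is not given in the sources used here. PSMA3-AS1 was at 0.12 (adjusted p = 0.287) and PSME3IP1 at -0.01 (adjusted p = 0.919). The remaining 14 rows had at most 6 reads in any culture.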
